A study of Mus musculus with 8 samples.

Results

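The comparison asked what costimulation blockade did to gene expression in CD8 T cells that were responding to foreign tissue antigens. It rests on the arrays labelled CD8 T cells, 4 of the 8 arrays of the series, which were taken by cell type and agent in the labels: 2 from cultures with blockade and 2 from cultures without it. The cells came from a mixed lymphocyte reaction, in which splenocytes of one mouse strain meet those of a strain with different transplantation antigens. Responders were 200000 C57BL/6 splenocytes per well, labelled with the dye CFSE, which is diluted as cells divide, and stimulators were 800000 FVB/N splenocytes that had received 30 Gy of irradiation. Blockade cultures contained CTLA4-Ig, anti-CD40L and anti-LFA-1, each at 50 µg, for 5 days, and untreated cultures had no antibody added. Cells positive for both CFSE and CD8 were then sorted, 300000 were counted, and their RNA was hybridized to Affymetrix mouse arrays. For the sort the labels name antibodies to human CD4 and CD8, although the cells were murine. The CD4 cells of the series went through the same steps. Their arrays serve as a comparison and also entered the estimate of spread used for the CD8 tests. The sources used here name neither the age and sex of the mice nor a control antibody.

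A T cell that meets its antigen also needs costimulatory signals, of which CD28 binding CD80 or CD86 on the antigen-presenting cell is the best known. CTLA4-Ig, a fusion of the CTLA-4 receptor with an immunoglobulin tail, occupies CD80 and CD86. The integrin LFA-1 holds the T cell to its partner, and CD40L on activated T cells signals through CD40 to B cells and dendritic cells. Activated CD8 cells divide, make granzymes and cytokines, and respond to interleukin-2.

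Every value is a level relative to the median of its probe set over the 8 arrays, read here as log2 without the base being stated in the sources. A level of 0 is therefore that median and says nothing of how strongly a gene was expressed. A change is the blockade mean minus the untreated mean of 2 and 2 arrays, given ± SE, and its adjusted p comes from limma over all features. The spread behind SE and p was taken over all 8 arrays, those of CD4 cells included. A change was called when that adjusted p was at most 0.05. Each group had 4 mice by the labels, which do not tie its 2 arrays to separate cultures, so a p-value here sets a change against the spread of these arrays, part or all of which may be technical. CD8 blockade replicate 1 stood apart by its control probe sets: its median level was 0.919 for the hybridization spike-ins and 0.794 for the poly-A spike-ins, against -0.078 to 0.007 and -0.342 to 0.227 on the other CD8 arrays. Over all 45037 probe sets the median absolute difference between replicates was 0.136 for the blockade pair and 0.116 for the untreated pair.

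Names exist for 289 genes, all taken from a list of 409 probe sets that the authors deposited and had selected on these same arrays. Neither the direction of these genes nor a count of them is therefore independent evidence. None of the 16 genes on a list of T cell identity markers, among them Cd8a and Cd3e, could be named, so the sort could not be checked by its own markers. In RNA from a sorted population, fewer cells of a type and less RNA per cell cannot be told apart.

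Blockade changed 1016 of 45037 probe sets in CD8 cells (2.26%), 422 upward (0.937%) and 594 downward (1.32%). The downward changes reached further. Of the called probe sets, 289 fell and 148 rose at least 2-fold, 97 fell and 9 rose at least 4-fold, and 30 fell and 1 rose at least 8-fold. The median change over all probe sets was 0.018. Outside the deposited list 655 of 44628 probe sets were called (1.47%), 300 higher and 355 lower, and these could be given no name. Both blockade arrays lay outside the range of both untreated arrays for 43.5% of all probe sets (23.7% above and 19.9% below), so separation of the groups by itself is common here. All 409 listed probe sets separated in this way, and 361 of them were called. Leaving out 1 array leaves its group with a single array and the fit with fewer degrees of freedom. A call, here or of a gene below, can then be lost although the change hardly moves. With 1 of the 4 CD8 arrays left out, the count of called probe sets was 507 (without blockade replicate 1), 650 (without blockade replicate 2), 529 (without untreated replicate 1) or 502 (without untreated replicate 2).

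**Figure D1:**
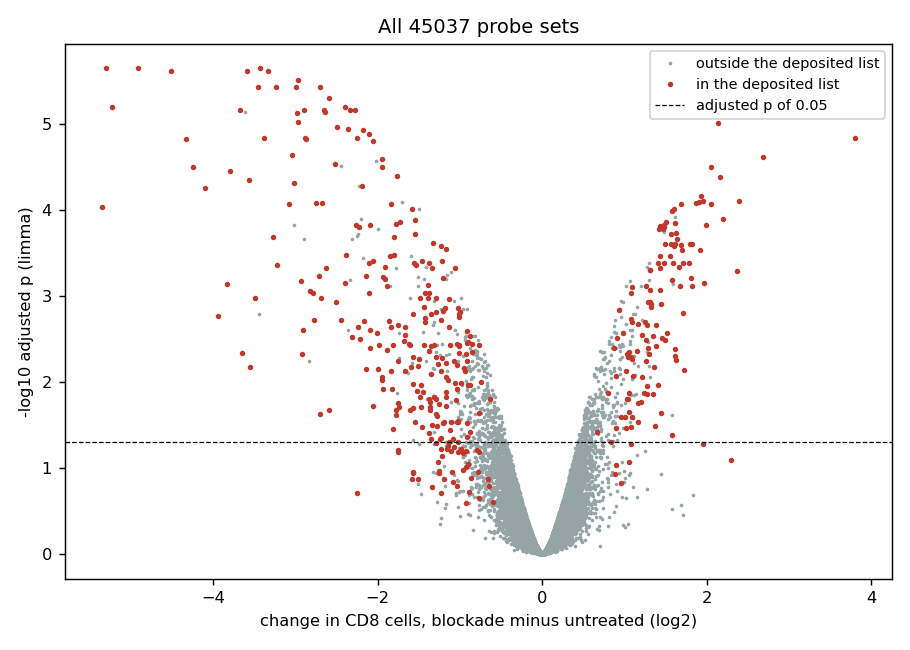
Change in CD8 cells (log2, blockade minus untreated, x axis) against -log10 of the limma adjusted p (y axis) for all 45037 probe sets, with the 409 probe sets of the deposited list in red and an adjusted p of 0.05 as the dashed line. The called changes reach further on the downward side, and 655 called probe sets, in grey above the line, are outside the list.

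Where a gene had several listed probe sets, their mean entered the fit, and 867 of the resulting 44951 features were called (1.93%), 353 higher (0.785%) and 514 lower (1.14%). Of the 289 named genes, 247 were called, 75 higher and 172 lower, with a median change of -1.22. Every count of called members of a gene list below has to be read beside these shares. The call was kept by 185 of the 247 without CD8 blockade replicate 1, and by 169 whichever single CD8 array was left out. No named gene changed sign in any alternative analysis. On the same arrays the named markers of B cells rose (24 of 24 called) and those of neutrophils (8 of 12) and of mast cells and basophils (9 of 12) fell; their part in the changes of the other gene groups was not tested.

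Gzmb, which encodes granzyme B, the protease that cytotoxic cells inject into their targets, lay at 2.72 and 3.38 in untreated and -2.15 and -2.44 in blockade cultures. The groups were far apart, and the change of -5.34 ± 0.34 (adjusted p = 1.13e-04) was the largest fall of any named gene. All 4 named members of the 24 genes on the cytotoxic granule and serpin list fell, with a median change of -2.80. The other members were serpins, inhibitors of proteases. Serpina3g, an inhibitor of cathepsins, lay at -1.75 and -2.05 on the arrays with blockade and 0.98 and 0.98 on those without and changed by -2.88 ± 0.13 (adjusted p = 1.82e-05). Serpine2, an inhibitor of thrombin, changed by -2.71 ± 0.24, and Serpinb6b by -1.53 ± 0.23. The call of Serpinb6b was lost without blockade replicate 1 or either untreated array.

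Most named receptors and signalling genes of cytokines fell too. Of the 34 genes on the cytokine receptor and signalling list 9 could be named, and 8 fell and 1 rose (median -1.58). Il2ra, the alpha chain that gives the interleukin-2 receptor its high affinity, lay at -1.43 and -1.22 with blockade and 0.87 and 1.27 without it and changed by -2.40 ± 0.32 (adjusted p = 0.00653). The arrays of the groups did not overlap, but only 1 of the gene's 2 probe sets was called on its own, and the call was lost without blockade replicate 1 or untreated replicate 2. Socs2 and Cish, inhibitors of cytokine signalling that STAT5 itself induces, followed the same course. Socs2 lay at 1.53 and 1.62 in untreated and -2.65 and -2.62 in blockade cultures, a change of -4.21 ± 0.17 (adjusted p = 8.78e-06). Cish lay at -1.58 and -1.48 on the arrays with blockade and 0.61 and 0.85 on those without, a change of -2.26 ± 0.16 (adjusted p = 1.93e-04). Replicates of both genes lay close together beside changes of this size. Socs1, a brake on cytokine signalling, changed by -1.58 ± 0.14, and Stat2, a transcription factor of type I interferon signalling, by -1.37 ± 0.14. Il7r, the interleukin-7 receptor chain found on resting T cells, was the 1 member that rose, from -0.46 and -0.46 on the untreated arrays to 0.51 and 0.59 on the blockade arrays (1.01 ± 0.09, adjusted p = 7.64e-04).

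All 6 named genes of 33 on the activation receptor and ligand list fell (median -1.29). Tnfrsf9, the costimulatory receptor 4-1BB, lay at -1.61 and -1.69 with blockade and 1.17 and 1.38 without it and changed by -2.93 ± 0.16 (adjusted p = 5.98e-05). Cd274, the inhibitory ligand PD-L1, lay at 1.32 and 1.29 in untreated and -1.36 and -1.29 in blockade cultures and changed by -2.64 ± 0.11 (adjusted p = 8.78e-06). The closest arrays of the groups were 2.78 apart for Tnfrsf9 and 2.59 apart for Cd274, with replicates close together. The transferrin receptor Tfrc, which supplies iron to dividing cells, changed by -1.37 ± 0.22, the early activation marker Cd69 by -1.17 ± 0.16, Treml2 by -1.21 ± 0.11 and Cd86, a ligand of CD28, by -1.11 ± 0.20. These were smaller, and the call of Cd86 was lost whichever single CD8 array was left out, and that of Tfrc without any 1 of them except untreated replicate 1. Cd69 was no longer called when untreated replicate 2 was left out.

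Of 37 cytokines and chemokines 8 could be named, and 5 fell and 3 were not called (median -1.52). Penk, the precursor of the opioid peptide enkephalin, lay at -2.28 and -2.60 on the arrays with blockade and 1.80 and 1.81 on those without, a change of -4.24 ± 0.22 (adjusted p = 3.92e-05). Ccl3, a chemokine that draws leukocytes to inflamed sites, lay at -0.72 and -0.88 with blockade and 1.74 and 2.02 without it and changed by -2.68 ± 0.16. Csf2, which encodes GM-CSF, lay at 0.72 and 0.73 in untreated and -0.72 and -0.91 in blockade cultures and changed by -1.54 ± 0.13. In these 3 genes no blockade array came near an untreated array. Ccl6 and Il6 changed by -3.26 ± 0.41 and -1.30 ± 0.23, and both calls were lost without blockade replicate 1, that of Il6 also without blockade replicate 2 or untreated replicate 2. Ccl6 was also less even among replicates, with 2.61 and 1.10 on the untreated arrays. The genes not called were the chemokines Ccl9 (-1.51 ± 0.42) and Cxcl10 (-0.65 ± 0.19) and the cytokine Lif (-1.22 ± 0.28). Ccl9 was at 1.88 and 0.25 on the untreated arrays, and without the lower of them, replicate 2, it was called at -2.32, as was Cxcl10 at -0.96.

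The transcription factors of antigen receptor signalling went in opposite directions. Egr1 and Egr2, early response factors induced through the T cell receptor, were higher under blockade. Egr2 lay at 0.82 and 0.81 on the arrays with blockade and -0.99 and -0.81 on those without and rose by 1.71 ± 0.17 (adjusted p = 0.00138), and Egr1 lay at 0.65 and 0.83 with blockade and -1.03 and -0.65 without it and rose by 1.58 ± 0.14 (adjusted p = 7.71e-04). The orphan nuclear receptors Nr4a3 and Nr4a2, also induced by antigen receptor signals, fell, with changes of -1.57 ± 0.20 and -1.33 ± 0.25. Nr4a3 was at -0.66 and -0.70 under blockade and 0.66 and 1.12 without it. Without blockade replicate 1 the calls of both Nr4a genes were lost (adjusted p = 0.0503 and 0.158), and that of Nr4a2 also without blockade replicate 2 or untreated replicate 2. These 4 were the only named genes of 35 on that list, and markers of B cells, in which Egr and Nr4a genes are also expressed, rose on the same arrays. The part of those cells in these values was not tested.

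**Figure D2:**
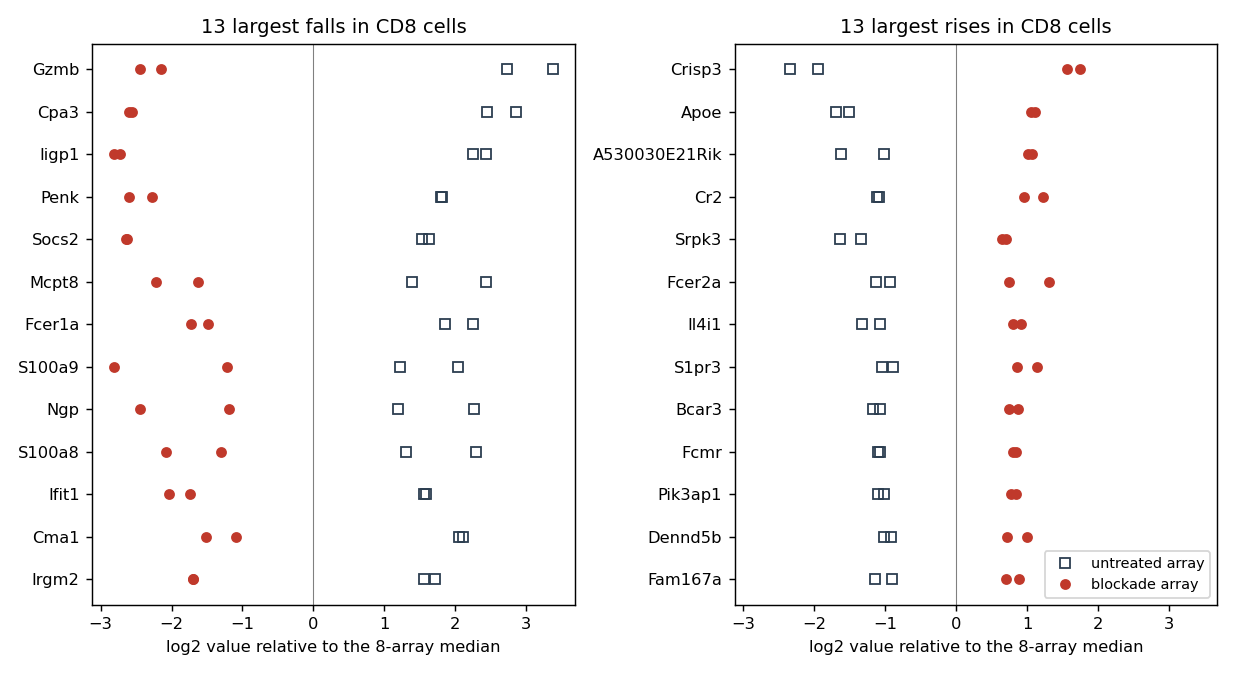
Level (log2 relative to the median of the 8 arrays, x axis) on each of the 4 CD8 arrays for the 13 named genes with the largest falls (left) and the 13 with the largest rises (right), with blockade arrays as red circles and untreated arrays as open squares. Separation of the groups was a condition for a gene to be shown, and S100a9, Ngp and Mcpt8 have replicates that are far apart.

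Named genes of cell division were lower with blockade. Progress through the cell cycle is driven by cyclins and the kinase Cdk1, after which kinesins, the spindle checkpoint and the condensins part the chromosomes. Of 90 genes on the mitosis and cell cycle list 38 could be named, of which 32 fell and 6 were not called, and the median change was -1.43. All 38 were lower on both blockade arrays than on either untreated array. The groups separated in all 289 named genes, which were selected on these arrays, and 19.9% of all probe sets lay below in this way. Of those 289 genes 247 were called, 172 of them lower, while 1.14% of all features were called lower. The mean level over the list was -0.85 and -0.80 with and 0.66 and 0.86 without blockade. Cyclin B2 (Ccnb2), a partner of Cdk1 at entry into mitosis, lay at 1.12 and 1.99 in untreated and -1.63 and -1.10 in blockade cultures and changed by -2.92 ± 0.37 (adjusted p = 0.00535). Its untreated replicates differed clearly from each other, and its call was lost without blockade replicate 1 (adjusted p = 0.0563). The survivin gene Birc5, which positions the chromosomal passenger complex, lay at -1.90 and -1.16 on the arrays with blockade and 1.05 and 1.44 on those without and changed by -2.78 ± 0.30. Top2a, the topoisomerase that untangles sister DNA, lay at -1.51 and -1.23 with blockade and 0.86 and 1.17 without it and changed by -2.38 ± 0.19. Mki67, the standard marker of proliferation, lay at 0.79 and 1.02 in untreated and -1.18 and -1.20 in blockade cultures and changed by -2.10 ± 0.17 (adjusted p = 5.06e-04). In each of these genes the groups were well apart, the smallest gap between them being 1.98 for Mki67. Cyclin A2 (Ccna2) changed by -2.27 ± 0.25 and Ube2c, the ubiquitin-conjugating enzyme of the anaphase-promoting complex, by -2.17 ± 0.23. Cdk1 itself lay at -1.22 and -0.99 on the arrays with blockade and 0.78 and 0.84 on those without and changed by -1.91 ± 0.17. The 6 genes not called were Ckap2 (-1.15 ± 0.24), Ccne2 (-1.08 ± 0.31), Spc24 (-1.04 ± 0.31), Nuf2 (-0.93 ± 0.34), Kif2c (-0.91 ± 0.22) and Cdkn3 (-0.89 ± 0.28). Cdkn1a, which encodes the cell cycle inhibitor p21 and stands on the same list, changed by -1.73 ± 0.19 and so fell as well.

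Many mitotic genes are known to be controlled together through a CCAAT box, bound by NF-Y, and a TTTGAA element, bound by the DREAM and MuvB complexes. Promoters of 300 bases, from 250 before to 50 from the transcription start, were taken from RefSeq (GRCm38.p6), where 227 of the 289 named genes have one. Those of Ccnb2 and Cdk1 are shown because they belong to the group that fell and hold both elements. They are written 5′ to 3′ on the strand of the gene, with matches to CCAAT and TTTGAA, on either strand, in capitals.
Ccnb2 chr9:70421505-70421804 (minus strand): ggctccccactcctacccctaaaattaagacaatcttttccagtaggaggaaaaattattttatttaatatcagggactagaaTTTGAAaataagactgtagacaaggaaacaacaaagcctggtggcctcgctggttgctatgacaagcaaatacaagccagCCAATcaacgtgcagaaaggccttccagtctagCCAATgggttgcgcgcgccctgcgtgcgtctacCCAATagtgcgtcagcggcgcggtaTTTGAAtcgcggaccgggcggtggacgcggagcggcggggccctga
Cdk1 chr10:69352863-69353162 (minus strand): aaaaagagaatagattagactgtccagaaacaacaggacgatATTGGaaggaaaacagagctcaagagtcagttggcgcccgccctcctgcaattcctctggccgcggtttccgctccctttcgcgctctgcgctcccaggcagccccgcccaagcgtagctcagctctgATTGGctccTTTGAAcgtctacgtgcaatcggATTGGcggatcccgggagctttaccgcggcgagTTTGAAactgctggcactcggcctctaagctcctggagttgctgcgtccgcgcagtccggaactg

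Each promoter held 5 matches. Among the 29 mitosis and cell cycle genes with a promoter, 21 held CCAAT (72.4%), 20 held TTTGAA (69.0%) and 16 held both (55.2%). Among all 27025 genes with a promoter of this length, 41.1% held CCAAT, 20.2% held TTTGAA and 8.97% held both. A gene with several promoters was counted if any of them matched. Matches of different elements, with the interferon elements described further below included in the count, overlapped in 242 of 32851 promoters. A match is a run of letters and no measure of binding.

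In the DNA replication and repair list 7 of 43 genes could be named, of which 4 fell and 3 were not called (median -1.57). Rrm2, the subunit of ribonucleotide reductase that limits the supply of nucleotides, lay at -1.57 and -1.38 with blockade and 0.81 and 1.02 without it and changed by -2.39 ± 0.24 (adjusted p = 0.00139). Uhrf1, which keeps DNA methylation through replication, changed by -1.95 ± 0.28, Cdc6, a loading factor of replication origins, by -1.81 ± 0.34, and Dscc1, of the cohesion machinery, by -1.48 ± 0.23. Only Rrm2 kept its call whichever single CD8 array was left out, and its 3 probe sets, all called, changed by -2.91 to -1.57. Among the genes not called were Chek1 (-1.50 ± 0.35), of the replication checkpoint, and Tk1 (-1.20 ± 0.33), of thymidine supply.

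Most named interferon-inducible genes fell. Type I interferons signal through a complex with Stat2 and Irf9 that binds the interferon-stimulated response element, whereas interferon-gamma acts through gamma-activated sites. Of 72 genes on the type I interferon list 24 could be named, of which 23 fell and 1 was not called, with a median change of -1.56 and a mean level of -0.97 and -0.91 with and 0.89 and 0.82 without blockade. Ifit1, an antiviral protein that binds foreign RNA ends, lay at 1.58 and 1.55 in untreated and -2.03 and -1.74 in blockade cultures and changed by -3.45 ± 0.12 (adjusted p = 5.79e-06). Its relative Ifit3 lay at -1.24 and -1.26 on the arrays with blockade and 1.76 and 1.72 on those without and changed by -2.99 ± 0.10 (adjusted p = 5.79e-06). Ifitm1, a membrane protein that restricts virus entry, lay at -1.20 and -1.53 with blockade and 1.74 and 1.56 without it and changed by -3.02 ± 0.17. The groups were well apart in each of them, the smallest gap being 2.76 for Ifitm1. Cmpk2, a mitochondrial nucleotide kinase, changed by -2.75 ± 0.17, Rtp4, a receptor transport protein, by -2.55 ± 0.12, and Zbp1, a sensor of Z-form nucleic acids, by -2.34 ± 0.10. The transcription factors of the pathway fell as well. Irf9 lay at 1.02 and 0.90 in untreated and -0.94 and -1.04 in blockade cultures (-1.95 ± 0.10), and Irf7, which amplifies interferon production, changed by -1.48 ± 0.14. Samd9l, at -0.79 ± 0.17, was not called. It was called with quantile normalization at -0.76, and without blockade replicate 2, where its change was -1.02.

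The interferon-gamma and immunity GTPase list had 23 named genes of 56, with 21 falls, 1 rise and 1 not called and a median of -2.37. Immunity-related GTPases and guanylate-binding proteins attack the vacuoles of intracellular microbes. Iigp1 lay at -2.72 and -2.81 on the arrays with blockade and 2.44 and 2.25 on those without, a change of -5.11 ± 0.11 (adjusted p = 5.86e-07). Irgm2 lay at -1.69 and -1.70 with blockade and 1.72 and 1.56 without it, a change of -3.34 ± 0.10 (adjusted p = 3.48e-06). Gbp6 lay at 1.66 and 1.65 in untreated and -1.64 and -1.61 in blockade cultures, a change of -3.28 ± 0.10 (adjusted p = 3.48e-06). Replicates of these genes nearly coincided, while the smallest gap between the groups was 3.26. Gvin1 and Irgm1, further GTPases, changed by -2.96 ± 0.12 and -2.90 ± 0.11. Serpina3g, Cd274, Socs1 and Cxcl10 stand on this list too, and Cxcl10 was the member not called. Ciita, the master activator of class II genes, which interferon-gamma induces in many cells and B cells express without it, was the only member that rose (1.21 ± 0.12, adjusted p = 0.00146), from -0.75 and -0.64 to 0.63 and 0.41.

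The promoters of Ifit1 and Irgm2 are shown as examples of the 2 interferon lists, with matches on either strand to GAAA, any 2 bases, GAAA, the core of the interferon-stimulated response element, and, in Irgm2, to TTCNNNGAA, the core of the gamma-activated site, in capitals.
Ifit1 chr19:34640639-34640938 (plus strand): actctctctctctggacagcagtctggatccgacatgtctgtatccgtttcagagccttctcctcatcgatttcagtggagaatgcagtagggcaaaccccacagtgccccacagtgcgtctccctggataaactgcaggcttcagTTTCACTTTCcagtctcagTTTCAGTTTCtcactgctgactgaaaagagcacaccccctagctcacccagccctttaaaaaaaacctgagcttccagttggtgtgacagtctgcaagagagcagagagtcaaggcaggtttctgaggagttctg
Irgm2 chr11:58214727-58215026 (plus strand): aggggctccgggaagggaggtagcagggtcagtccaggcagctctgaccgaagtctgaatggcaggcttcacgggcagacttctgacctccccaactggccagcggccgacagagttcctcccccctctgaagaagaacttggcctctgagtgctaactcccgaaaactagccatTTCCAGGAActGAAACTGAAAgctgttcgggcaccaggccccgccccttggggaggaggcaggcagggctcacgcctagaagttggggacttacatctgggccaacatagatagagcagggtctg

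Ifit1 held the response element core at 2 places, both on the opposite strand, and Irgm2 held each of the 2 elements once. This core was in the promoters of 9 of 19 type I interferon genes (47.4%) and of 9 of 15 interferon-gamma and GTPase genes (60.0%), and in 3.99% of all genes. TTCNNNGAA was in 5 of 19 (26.3%) and 5 of 15 (33.3%), and in 9.55% of all genes. Genes that stand on both lists are counted in each.

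Most named genes of metabolism fell. Of 72 genes on the metabolism and amino acid stress list 8 could be named, 6 fell, 1 rose and 1 was not called (median -1.34). Asns, asparagine synthetase, lay at -1.27 and -1.04 on the arrays with blockade and 1.41 and 1.80 on those without and changed by -2.76 ± 0.22 (adjusted p = 4.75e-04). Psat1 and Shmt1, of serine and one-carbon metabolism, changed by -1.82 ± 0.17 and -1.42 ± 0.15, Idi1, of sterol synthesis, by -1.62 ± 0.20, and the hexokinase Hk2 by -1.26 ± 0.17, the last losing its call without any 1 CD8 array except untreated replicate 1. The glycolytic enzyme Tpi1 lay at -0.93 ± 0.21 and was not called. Scd1, a fatty acid desaturase, rose by 1.06 ± 0.13. Among adhesion, migration and homing genes, where 5 of 53 had names, the sphingosine phosphate receptor S1pr3 and the chemokine receptor Ccr6 rose (1.97 ± 0.18 and 1.56 ± 0.12), the galectin Lgals1 fell (-1.98 ± 0.25), and Anxa2 (-1.25 ± 0.33) and S100a6 (-0.96 ± 0.21) were not called. The call of Lgals1 was lost without blockade replicate 1 (adjusted p = 0.0513).

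**Figure D3:**
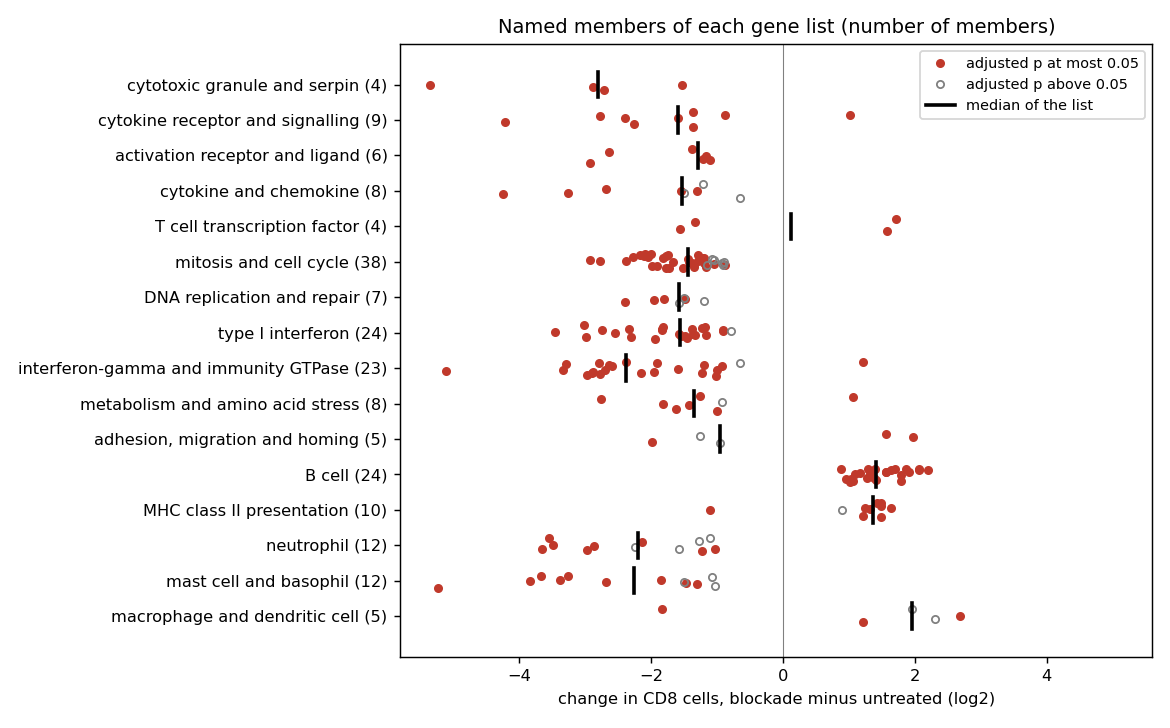
Change in CD8 cells (log2, blockade minus untreated, x axis) of each named member of each gene list, filled where the adjusted p was at most 0.05 and open where it was not, with a black bar at the median of the list and the number of named members in parentheses. All 24 B cell genes lie to the right of 0 and all 38 mitosis and cell cycle genes to the left, among named genes that were selected on these arrays.

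Markers of cells other than T cells moved with blockade in the sorted CD8 samples. All 24 named B cell genes of 66 on that list rose (median 1.40), and their mean level was 0.66 and 0.70 with and -0.72 and -0.87 without blockade. Cr2, the complement receptor of mature B cells, lay at 0.95 and 1.23 with blockade and -1.09 and -1.12 without it and rose by 2.19 ± 0.14 (adjusted p = 1.52e-04). Fcer2a, the low-affinity IgE receptor CD23, rose by 2.06 ± 0.17, Il4i1, an amino acid oxidase, by 2.06 ± 0.13, and Fcmr, the Fc receptor of IgM, by 1.91 ± 0.12. The adaptor Pik3ap1 rose by 1.87 ± 0.11 and the transcription factor Mef2c by 1.79 ± 0.12. Ms4a1, which encodes CD20, lay at -0.60 and -0.81 in untreated and 0.58 and 0.60 in blockade cultures (1.30 ± 0.15). Cd79b, a chain of the B cell receptor, lay at 0.65 and 0.47 on the arrays with blockade and -0.47 and -0.59 on those without (1.09 ± 0.12). These last 2 genes were picked after their values were seen. The 6 before them were taken as the largest changes on the list, so every other member changed less by that choice.

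Class II antigen presentation genes, which mouse B cells and dendritic cells express, rose with them. Of 20 genes 10 had names, with 8 rises, 1 fall (Cd86) and 1 not called (Marchf1, a ligase that removes class II from the surface, 0.89 ± 0.23), and the mean level over the list was 0.48 and 0.48 with and -0.57 and -0.69 without blockade. H2-Ab1 lay at 0.80 and 0.70 with blockade and -0.84 and -0.95 without it and rose by 1.64 ± 0.11 (adjusted p = 1.51e-04). H2-Aa, its partner chain, lay at -0.75 and -0.89 in untreated and 0.70 and 0.62 in blockade cultures and rose by 1.48 ± 0.11. H2-DMb2, H2-Eb1 and Cd74, the invariant chain that guides class II to the endosome, rose by 1.49 ± 0.11, 1.48 ± 0.10 and 1.43 ± 0.10. Class II promoters carry a Y box, a CCAAT sequence in the reverse direction, and that of H2-Aa is shown with its match in capitals.
H2-Aa chr17:34287774-34288073 (minus strand): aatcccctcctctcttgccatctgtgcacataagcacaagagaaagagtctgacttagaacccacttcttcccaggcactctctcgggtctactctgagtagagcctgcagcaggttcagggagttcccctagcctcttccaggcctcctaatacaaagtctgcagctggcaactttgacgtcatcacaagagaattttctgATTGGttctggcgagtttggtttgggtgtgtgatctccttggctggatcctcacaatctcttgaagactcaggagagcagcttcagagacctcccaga

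CCAAT on either strand was in the promoters of all 5 genes of the class II presentation list that had one, against 41.1% of all genes. They were H2-Aa, H2-Eb1, H2-DMb2, H2-Ob and Marchf1. Marchf1 is the ligase that was not called, and it had several promoters, any of which could match. H2-Ab1, Cd74 and Ciita were not among them.

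Granulocyte and mast cell genes went the other way. Of 42 neutrophil genes 12 were named, 8 fell and 4 were not called (median -2.20), with a mean level of -0.85 and -1.28 with and 1.55 and 0.85 without blockade. S100a9, which with S100a8 forms calprotectin, lay at -1.22 and -2.80 on the arrays with blockade and 2.04 and 1.22 on those without and changed by -3.65 ± 0.46 (adjusted p = 0.00518), and S100a8 lay at -1.31 and -2.07 with blockade and 2.29 and 1.31 without it and changed by -3.49 ± 0.34. Ngp, a granule protein, lay at 2.26 and 1.20 in untreated and -1.20 and -2.44 in blockade cultures and changed by -3.55 ± 0.48. In these genes the groups did not overlap, but the replicates of each group were far apart. The proteases and peroxidase of early granules were more even, Ctsg, cathepsin G, at -1.39 and -1.47 on the arrays with blockade and 1.39 and 1.70 on those without (-2.98 ± 0.12) and Mpo, myeloperoxidase, at -1.14 and -1.56 with blockade and 1.54 and 1.50 without it (-2.87 ± 0.13). Chil3, a chitinase-like protein, was at 3.14 and 0.28 on the untreated arrays and changed by -2.25 ± 0.72 without being called; without untreated replicate 2 it was called at -3.68. The others not called were Ltf (-1.57 ± 0.41), Lcn2 (-1.27 ± 0.30) and Ms4a3 (-1.11 ± 0.24), the last called at -1.53 without untreated replicate 2.

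Of 45 mast cell and basophil genes 12 had names, 9 fell and 3 were not called (median -2.26), with a mean level of -1.23 and -1.05 with and 1.38 and 1.39 without blockade. Cpa3, the carboxypeptidase of mast cell granules, lay at 2.45 and 2.86 in untreated and -2.60 and -2.56 in blockade cultures and changed by -5.23 ± 0.20 (adjusted p = 8.23e-06). Mcpt8, a protease of basophils, lay at -1.63 and -2.22 on the arrays with blockade and 1.39 and 2.43 on those without and changed by -3.83 ± 0.35. Fcer1a, a chain of the high-affinity IgE receptor, lay at -1.49 and -1.73 with blockade and 1.85 and 2.26 without it and changed by -3.67 ± 0.14 (adjusted p = 8.78e-06). The groups did not overlap in any of these, and Cpa3 fell nearly as far as Gzmb. The mast cell chymase Cma1 changed by -3.38 ± 0.16. Ms4a2, another chain of the IgE receptor, and Csf2rb, a shared receptor chain for GM-CSF and interleukin-3, were at -1.02 ± 0.23 and -1.07 ± 0.23 and were not called, Csf2rb being called at -1.48 without blockade replicate 2. Ccl3, Ccl6, Ccl9 and Il6 stand on this list as well as on the cytokine list, so their changes are shared by both.

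Macrophage and dendritic cell genes, of which 5 of 67 had names, did not move one way. Apoe, apolipoprotein E, lay at -1.69 and -1.51 in untreated and 1.06 and 1.11 in blockade cultures and rose by 2.69 ± 0.13 (adjusted p = 3.04e-05), and Cybb, a subunit of the phagocyte oxidase, rose by 1.22 ± 0.16, a call lost without blockade replicate 1. Fabp4 (1.95 ± 0.41) and Gpnmb (2.30 ± 0.54) were not called. Both were high on blockade replicate 2 (1.71 and 1.98) and lower on replicate 1 (0.27 and 0.43), and without replicate 1 they were called at 2.67 and 3.08. Bst2, which is also on the type I interferon list, fell (-1.84 ± 0.11). None of the 22 natural killer cell genes and none of the 23 erythroid and platelet genes had a name, but 4 listed probe sets that the authors assigned to several hemoglobin genes rose, with changes of 1.29 to 1.92. The level of any of these cell types cannot be read from centred values, and their part in the changes of the T cell, cell cycle and interferon genes was not tested.

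The same blockade was applied to CD4 cells, and the question whether it acted differently there was put to a test of the difference between both changes. It called 28 of 45037 probe sets (0.0622%), and 26 features (0.0578%) with named genes averaged. Of the 28, 26 had fallen in CD4 cells, while in CD8 cells 10 fell, 3 rose and 15 were not called, and 21 had a higher untreated level in CD4 than in CD8 cells. Among the 289 named genes, which were selected on these arrays, 199 had a smaller and 90 a larger absolute change in CD8 than in CD4 cells. Over all 45037 probe sets the counts were even, with 22531 smaller and 22490 larger. Of the named genes 4 passed the test of the difference. Itih5, an inter-alpha-trypsin inhibitor heavy chain, lay at -0.52 and -0.36 on the CD4 blockade arrays and 3.92 and 4.30 on the CD4 untreated arrays, and on the CD8 arrays at -0.94 and -0.95 under blockade and 0.36 and 0.63 without it. The change was thus -4.54 ± 0.15 in CD4 and -1.43 ± 0.15 in CD8 cells, a difference of 3.11 ± 0.21 (adjusted p = 0.00305). Dnah7b, an axonemal dynein heavy chain, lay at -0.34 and -0.59 on the CD4 blockade arrays and 4.00 and 4.71 on the CD4 untreated arrays, and on the CD8 arrays at -0.89 and -0.84 under blockade and 0.55 and 0.34 without it, a difference of 3.51 ± 0.29 (adjusted p = 0.0076). For both genes the untreated CD4 arrays were high and all other arrays were below 1. Tnfrsf9 lay at -1.33 and -1.58 on the CD4 blockade arrays and 3.18 and 3.65 on the CD4 untreated arrays, with a difference of 1.94 ± 0.23 (adjusted p = 0.0435), and Gbp3, a guanylate-binding protein, at -1.56 and -1.68 on the CD4 blockade arrays and 1.53 and 1.60 on the CD4 untreated arrays and, on the CD8 arrays, at -1.11 and -0.92 under blockade and 0.95 and 0.92 without it, with a difference of 1.23 ± 0.15 (adjusted p = 0.0413). Gbp3 fell in both subsets. For Gzmb the difference was 0.06 ± 0.47 (adjusted p = 0.998), for Il2ra 1.81 ± 0.45 (adjusted p = 0.59), for Socs2 1.56 ± 0.24 (adjusted p = 0.109) and for Cpa3 -1.07 ± 0.28 (adjusted p = 0.661), none of them called. With 1 array left out the count of called probe sets ranged from 5 (without either CD4 blockade array) to 26 (without CD4 untreated replicate 1), with 11, 9, 18 and 14 without CD8 blockade replicate 1 or 2 and CD8 untreated replicate 1 or 2, and 11 without CD4 untreated replicate 2. Itih5 kept its call throughout, while the fall of Dnah7b within CD8 cells lost its own call whichever CD8 array was left out. The call of the difference was lost for Dnah7b without any 1 of the blockade arrays (adjusted p = 0.062 to 0.0823), for Gbp3 without any 1 array, and for Tnfrsf9 without any 1 array except CD4 untreated replicate 1.

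**Figure D4:**
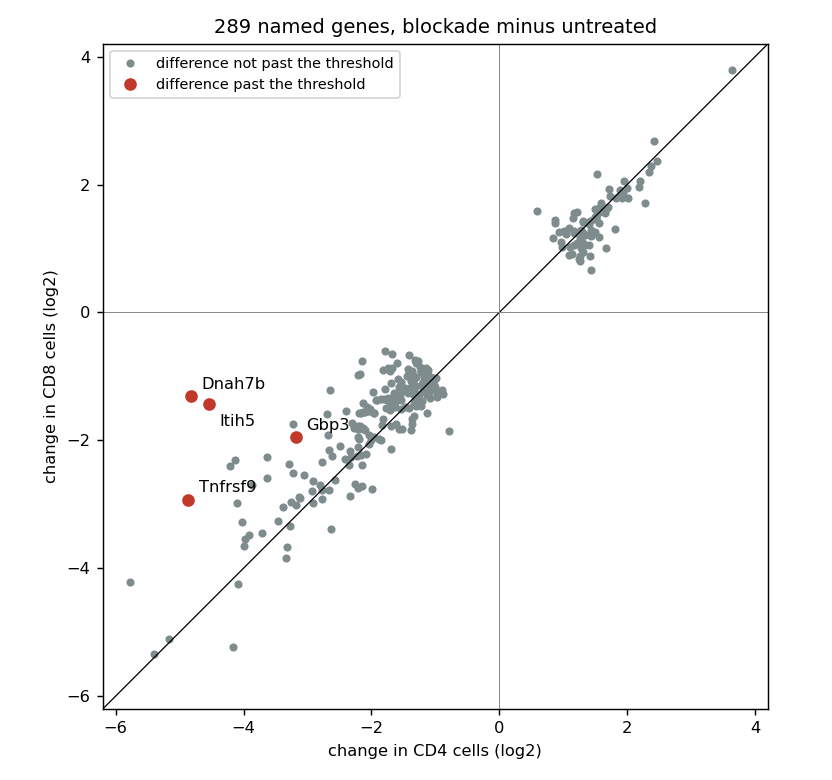
Change in CD8 cells (y axis) against change in CD4 cells (x axis) for the 289 named genes (log2, blockade minus untreated), with the line of equal change and, in red, the 4 genes whose changes differed between the subsets by limma. All 4 lie above the line, with larger falls in CD4 cells.

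Some called probe sets could be given no single gene name here. Of those, 1458589_at, on the deposited list, fell from 2.32 and 2.31 to -2.21 and -2.18 (change -4.50). The probe set 1417185_at fell from 2.70 and 2.65 to -0.92 and -0.96 (change -3.62). It is outside the list, so its gene was not looked up. Among the called ones the largest rises were those of 1417714_x_at, from -1.09 and -1.11 to 0.95 and 0.69 (change 1.92), and 1452757_s_at, from -0.84 and -0.94 to 0.87 and 0.78 (change 1.71), both assigned to several hemoglobin genes in the deposited list.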

How the data were processed

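RNA of 8 arrays was measured, 2 in each of 4 groups, which were taken from the sample titles. The deposited values of 45101 probe sets, -5.03 to 4.93, were read as log2, centred by the authors on the row median. Summary method, normalization and log base are not stated in the sources, and centring removed the signal level. After 64 control probe sets were dropped, limma 3.58.1 (R 4.3.3) fitted a mean per group over all 8 arrays with eBayes (4 residual and 4.46 prior degrees of freedom), two-sided, and p-values were adjusted by Benjamini-Hochberg across all features (threshold 0.05). The CD4 arrays entered the CD8 test through the shared spread. The fit was tested on simulated data.

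Names came from the deposited list: 375 of its 409 probe sets had 1 gene, 22 several and 12 none, and 33 symbols were updated through RefSeq (GRCm38.p6), where 369 matched. The 19 gene lists and the members were chosen with earlier results of these data known. Genes named are the 15 largest rises and falls, up to 6 members per list with every named member that missed the threshold, up to 10 subset differences, and 2 unnamed probe sets each way; others named (Ms4a1, Cd79b, Cdk1, Cdkn1a, Ciita, Il7r, Irf7, Irf9) were chosen after their values were seen. Alternatives were the 4 CD8 arrays alone, an unmoderated test, quantile and median scaling, array weights, robust eBayes, a replicate block, probe sets not ending in _s_at or _x_at, a 2-fold minimum and single arrays left out; leaving out CD4 arrays was added after the data were seen. The labels do not say whether same-numbered arrays are paired. Deviations of same-numbered arrays correlated at 0.026 in CD8 and -0.014 in CD4 cells, and 2 pairs in all are too few to decide it. Some genes that the rule names are not reported here.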

Additional observations from a re-analysis of the deposited data

Results flagged for a closer look

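A difference between the CD8 and the CD4 change passed limma's test for 4 named genes. It was 3.11 ± 0.21 (SE) for Itih5, 3.51 ± 0.29 for Dnah7b, 1.94 ± 0.23 for Tnfrsf9 and 1.23 ± 0.15 for Gbp3, on the log2 scale, each positive because the fall was larger in CD4 cells (adjusted p = 0.00305, 0.0076, 0.0435 and 0.0413). Of the untreated levels, that of Itih5 was 4.11 in CD4 and 0.49 in CD8 cells.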

How the results depend on the processing

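Against 1016 probe sets called in CD8 cells, a fit of the 4 CD8 arrays alone called 577, an unmoderated test of those arrays called 1 (4780 at an unadjusted p of at most 0.05; limma 6498), and requiring a 2-fold change left 437; leaving out 1 array gave 502 to 890. Of named genes 247 were called, 0 by the unmoderated test and 188 to 257 with 1 array left out. The subset difference was called for 28 probe sets, and for 5 to 26 with 1 array left out. The CD8-only fit lost the calls of 33 of the 247, of which the naming rule had chosen Ccl6, Cd69, Cdc6, Nr4a2, S100a9 and Tfrc (adjusted p = 0.0563 to 0.092), and gave 6 others a call. Array weights lost 6 of the 247, Cdc6 among them, and the subset difference of Tnfrsf9. Quantile normalization gave 1152, 271 and 19 for the 3 counts; 25 named genes gained a call and 1 lost it. With quantile normalization the subset difference was 0.72 for Gbp3 and 0.82 for Tnfrsf9 and neither was called. The replicate block gave 870, 261 and 33. It lost the calls of 5 named genes, Cd86 among them, and added 19 named genes. The subset differences of Gbp3 (limma adjusted p = 0.0958) and Tnfrsf9 (0.0761) were no longer called. Whether same-numbered arrays belong together is not stated in the labels. Leaving out either CD4 blockade array lost 19 of the 247, Cdc6, Il6 and Nr4a2 among them, and added 1; leaving out either CD4 untreated array lost 6 and added 16. None of the 247 called genes changed sign in any alternative. With 2 arrays per group and no signal level, the precision is limited by the number of arrays, and dim probe sets could not be told from bright ones.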

Other observations

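Of the named genes on none of the lists, 87 of 104 were called, 35 higher and 52 lower. Named genes were selected on these arrays, and 247 of all 289 were called, against 1.93% of all features. Crisp3, a cysteine-rich secretory protein, rose furthest of all named genes, from -1.94 and -2.35 on the untreated arrays to 1.57 and 1.75 on the blockade arrays (3.80 ± 0.18). Srpk3, a protein kinase, rose by 2.16 ± 0.12, Bcar3, an adaptor, by 1.93 ± 0.11, and A530030E21Rik by 2.36 ± 0.20. Dennd5b and Fam167a rose by 1.82 ± 0.17 and 1.82 ± 0.14. The 4 falls that follow were chosen after their values were seen. Scin, which encodes the actin-severing protein scinderin, was at -1.90 and -1.74 under blockade and 1.37 and 1.08 without it (-3.04 ± 0.15). Fscn1, the actin bundler fascin, changed by -2.70 ± 0.47, Tph1, the enzyme that begins serotonin synthesis outside neurons, by -2.62 ± 0.22, and Il18bp, which binds and blocks interleukin-18, by -2.51 ± 0.25. Of these 4 genes only Fscn1 did not keep its call whichever single CD8 array was left out.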
